A study of Homo sapiens with 26 samples.

Results

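The knockdown of POU2AF1 in SUDHL4 was compared with control cells of the same line, as 4 of the 26 deposited files: 2 titled as POU2AF1 knockdown and 2 titled as control. SUDHL4 is an established human line of diffuse large B cell lymphoma of the germinal centre type. All its groups carried a catalytically dead Cas9 fused to BFP and the KRAB repressor domain, brought in by lentivirus under an SFFV promoter. Another lentivirus then carried guide RNAs, against POU2AF1 in the knockdown and against no target in the control, so both sides had been transduced the same way. The cells grew in RPMI-1640 with serum, and all 4 files belong to batch 1. The labels used here do not give the guides, the time after transduction, or whether the line was a clone. The same series holds 2 libraries of SUDHL4 with guides against POU2F2, and OCI-Ly7, another germinal centre type lymphoma line, with the same targets.

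POU2AF1 encodes OCA-B (also OBF1 or BOB.1), a coactivator found mainly in B cells. It has no strong DNA binding of its own and joins the POU domain factors OCT1, encoded by POU2F1, and OCT2, encoded by POU2F2, on the octamer motif ATGCAAAT, which stands in immunoglobulin promoters and enhancers. Mice that lack it form no germinal centres. In germinal centre B cells BCL6 holds back genes of activation and of exit from the germinal centre.

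Each file held 24959865 to 30204712 estimated reads. Files 1 and 2 of the control differed by 1.12 times the counting noise and those of the knockdown by 1.13 times, whereas pairs of separate libraries in the series differed by at least 2.53 times. Each pair was therefore summed to 1 library, and the values of both files show mainly counting error, not biological spread. For single genes, such as PAX5, the files differed by more than counting error. Levels are read counts scaled to a fixed library total by TMM (CPM), and a log2 ratio compares the knockdown library with the control library, with 1 standing for 2-fold. Mitochondrially encoded genes took 9.64% of the control reads and 12.6% and 12.7% in the knockdown files. Markers of B cells were present in full: all 8 stood at 1 CPM or more. Of 24 markers of T and NK cells 19 stayed under 1 CPM on both sides, as did 19 of 20 myeloid and 14 of 16 stromal, endothelial and erythroid markers. CD3D, CD8A, CD8B and GNLY had 0 reads in both libraries.

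POU2AF1 (ENSG00000110777, chromosome 11, 111352252 to 111455630, minus strand, GRCh38) was at 406 CPM in both control files and 74 and 72.6 CPM in the knockdown files. The log2 ratio was -2.47, and its 95% counting interval ran from -2.52 to -2.42. In the SUDHL4 libraries with POU2F2 guides it was at 504 and 475 CPM. Nearly all of the POU2AF1 reads were assigned to 1 transcript, POU2AF1-201, which encodes the protein. It held 98.2% and 98.5% of the gene's reads in the control files and 95.9% and 96.5% in the knockdown files. Its deposited abundance was 182 and 183 TPM (length-scaled transcript abundance) in the control files and 27.4 and 27.1 TPM in the knockdown files. The shorter transcript POU2AF1-202, annotated as noncoding, was listed at 0.338 and 0.49 TPM in the control files and 0.874 and 0.651 TPM in the knockdown files. In bulk RNA, fewer cells with a transcript and less of it per cell cannot be told apart, here and for every gene below.

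The DNA-binding partners went in opposite directions on the CPM scale but not in deposited TPM. POU2F1 was at 94.3 and 101 CPM in the control files and 51.8 and 49.7 CPM in the knockdown files (log2 ratio -0.95). POU2F2 was at 304 and 303 CPM in the control files and 462 and 451 CPM in the knockdown files (log2 ratio 0.59). Both ratios were within 2-fold, and the 2 files of a side show no biological spread. In deposited TPM POU2F2 went from 125 to 115 and its log2 ratio turned to -0.12, while POU2F1 went from 11.8 to 4.85, a log2 ratio of -1.27. POU2F1 was also just past 2-fold on totals without mitochondrially encoded genes and without TMM, and when POU2AF1 knockdown file 1 was left out (-1.02).

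Over 12450 genes with a mean of at least 1 CPM, 957 were at least 2-fold higher in the knockdown library (7.69% of the genes tested) and 412 were at least 2-fold lower (3.31%). The ratio reached 4-fold for 270 of the higher and 41 of the lower genes, and 8-fold for 94 and 7. In 772 of the higher and 280 of the lower genes each of the 4 pairs of 1 control and 1 knockdown file was at least 2-fold apart. Protein-coding genes made up 754 of the higher and 317 of the lower genes. For scale, the 2 POU2F2 knockdown libraries of this line differed by 2-fold for 72 of 12354 genes (0.583%), control file 2 differed from file 1 for 82 (0.659%), and the knockdown files from each other for 65 (0.522%). Of the genes tested, 565 reached the 1 CPM mean through their higher side alone. These had to differ: 287 are among the higher genes and 88 among the lower. Of the genes named below, CHAC1, TLR2, IRF4, IGHV1-69D, WNT5A and ACKR4 passed through the control alone. LAIR1, FCER2, EBI3, EGR2, EGR3, CCR6, CCR7, KLF2, P2RY10, TLR7, ETV6, CDKN1A, CDKN2B, CD68, IGLC1, C16orf74, TMPRSS15 and IL4I1 passed through the knockdown alone, beside 11 interferon genes.

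The split depended on the scale. On the deposited TPM values 609 genes were higher and 1041 lower, and the median log2 ratio of all genes tested was -0.31 instead of -0.05. After that median was subtracted, TPM gave 995 higher and 367 lower. Ratios near 0 can thus change sign with the scale. None of the 183 named genes at least 2-fold apart did so.

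**Figure D1:**
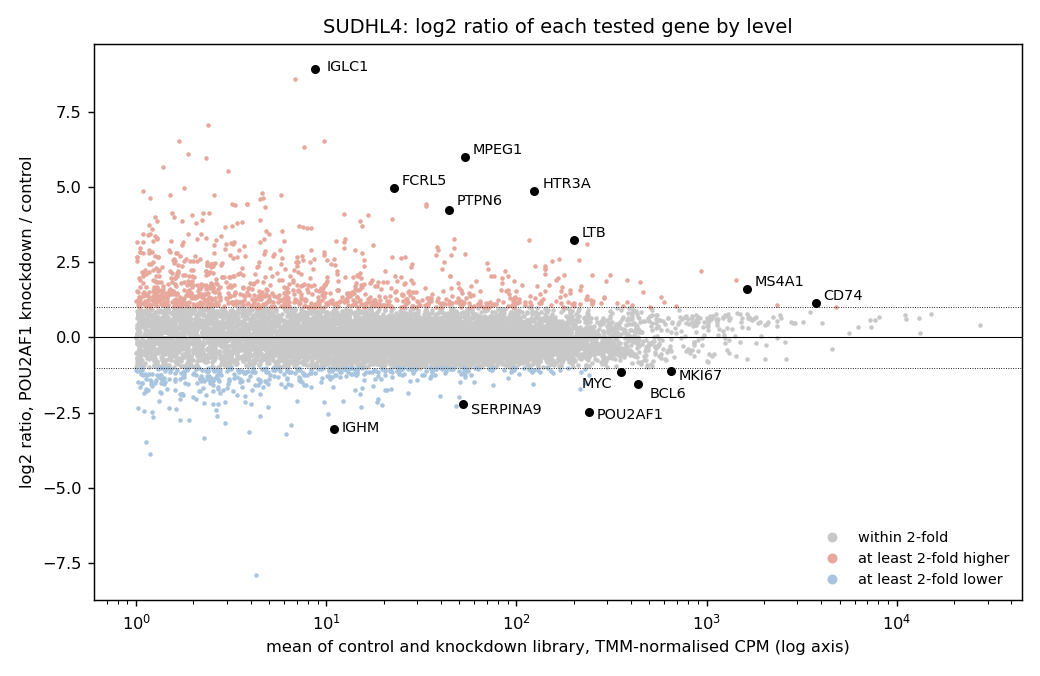
The log2 ratio of POU2AF1 knockdown over control in SUDHL4 (vertical axis) against the mean level of both libraries in TMM-normalised CPM (horizontal log axis), 1 point for each of 12450 genes tested. Dotted lines mark 2-fold: 957 genes lie on or above the upper and 412 on or below the lower, with POU2AF1 at -2.47.

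With 1 library on each side the comparison has no replicate of its own. A fit of the 4 SUDHL4 libraries with edgeR borrowed the spread of the 2 POU2F2 knockdown libraries and called 3005 genes higher (17.8% of 16872) and 3383 lower (20.1%) at a Benjamini-Hochberg adjusted p below 0.05. It assumes that the lone libraries vary like those 2, with a biological coefficient of variation of 0.0779. A fit of all 22 libraries of both lines took its spread mainly from OCI-Ly7, at 0.299, and called 233 genes higher (1.23% of 18985) and 87 lower (0.458%). Of the genes at least 2-fold apart, the all-library fit called 193 of the 957 and 44 of the 412. Nothing in the labels ties the libraries to different cultures, and the p-values therefore reflect the spread among the samples at hand, which may be technical. Adjusted p-values below come from the fit of the SUDHL4 libraries unless the all-library fit is named.

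The octamer was looked up in RefSeq promoter windows (GRCh38.p14, 250 bases before to 50 after the start of a gene), as ATGCAAAT on either strand. Of the genes tested, 9371 had a window and 126 of these held the octamer (1.34%). Among the genes at least 2-fold lower 10 of 268 held it (3.73%), and among those at least 2-fold higher 15 of 634 (2.37%). Over all 27305 windows of the table the share was 1.80%. Genes with the motif thus stood on both sides of the comparison. The windows of 2 lower genes, SERPINA9 (chr14:94476148-94476447, minus strand) and PIM2 (chrX:48918975-48919274, minus strand), and of 2 higher genes, CD53 (chr1:110870960-110871259, plus strand) and PRKCB (chr16:23835733-23836032, plus strand), are shown as examples of each, 5′ to 3′ on the strand of the gene, with the octamer or its reverse complement in capitals.
SERPINA9: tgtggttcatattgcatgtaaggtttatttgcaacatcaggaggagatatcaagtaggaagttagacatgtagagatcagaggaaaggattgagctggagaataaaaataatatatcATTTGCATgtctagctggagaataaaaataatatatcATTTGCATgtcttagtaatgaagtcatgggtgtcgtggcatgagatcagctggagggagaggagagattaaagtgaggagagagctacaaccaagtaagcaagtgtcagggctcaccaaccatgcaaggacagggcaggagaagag
PIM2: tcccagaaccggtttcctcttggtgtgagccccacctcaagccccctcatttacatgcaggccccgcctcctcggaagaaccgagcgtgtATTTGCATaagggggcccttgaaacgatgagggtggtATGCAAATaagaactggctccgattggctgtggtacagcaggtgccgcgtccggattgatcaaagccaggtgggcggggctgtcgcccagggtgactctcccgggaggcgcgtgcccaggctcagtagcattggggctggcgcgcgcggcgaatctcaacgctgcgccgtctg
CD53: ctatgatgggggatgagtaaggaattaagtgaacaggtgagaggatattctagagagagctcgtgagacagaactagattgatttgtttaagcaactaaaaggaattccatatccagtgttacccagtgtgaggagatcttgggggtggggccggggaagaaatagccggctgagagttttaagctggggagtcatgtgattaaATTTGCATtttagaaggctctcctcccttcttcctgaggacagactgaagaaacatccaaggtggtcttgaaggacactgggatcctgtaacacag
PRKCB: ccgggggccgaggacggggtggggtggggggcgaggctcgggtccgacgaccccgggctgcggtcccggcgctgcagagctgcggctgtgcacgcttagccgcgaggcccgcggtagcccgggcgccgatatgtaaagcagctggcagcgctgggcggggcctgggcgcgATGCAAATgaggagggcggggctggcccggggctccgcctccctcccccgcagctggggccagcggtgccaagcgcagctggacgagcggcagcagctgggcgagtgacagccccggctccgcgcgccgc

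SERPINA9 has the motif on the opposite strand at 133 and again at 96 bases before the start site. PIM2, a serine/threonine kinase that favours survival, has it on the gene's strand at 123 and on the opposite strand at 160 bases. The levels of PIM2 were 38.1 CPM without and 18.2 CPM with knockdown (log2 ratio -1.06). PIM2 was chosen after its values were seen. In CD53, a tetraspanin of leukocytes, the motif stands 46 bases before the start on the opposite strand, and in PRKCB, the protein kinase C that couples the B cell receptor to NF-kB, 80 bases before it on the gene's strand. A match describes letters, and binding was not measured.

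BCL6 and SERPINA9, both typical of germinal centre B cells, were lower in the knockdown, BCL6 as one of the 5 furthest down among genes of at least 100 CPM and SERPINA9 as one of the 12 furthest down at 10 CPM or more. Germinal centre genes as a group went both ways. Of 24 transcription factors 5 were at least 2-fold higher and 2 lower, and of 23 markers 3 were higher and 3 lower. BCL6 (ENSG00000113916, chromosome 3, 187721377 to 187745727, minus strand), the transcriptional repressor that defines the germinal centre programme, was at 649 and 643 CPM in the control files and 222 and 219 CPM in the knockdown files (log2 ratio -1.55), with an adjusted p of 7.4e-14 (edgeR) and 0.041 in the all-library fit. SERPINA9 (centerin, a serpin of germinal centre B cells, ENSG00000170054, chromosome 14, 94462717 to 94479689, minus strand) was at 85.8 and 86.6 CPM in the control files and 19.4 and 18.2 CPM in the knockdown files (log2 ratio -2.19). Its edgeR adjusted p was 1.5e-21 in the SUDHL4 fit but 0.24 in the all-library fit. The ranking took only genes at least 2-fold apart in each file pair, so the files of both genes had to lie apart.

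The other genes furthest below the control had mixed functions. GNB3, a G protein beta subunit, was at 25.6 and 25.1 CPM in the control files and 4.93 and 5.15 CPM in the knockdown files (log2 ratio -2.32). LOXL2, a lysyl oxidase that crosslinks collagen, was at 80.1 and 80.4 CPM in the control files and 15.9 and 17.1 CPM in the knockdown files (log2 ratio -2.28), and it was called in both fits (edgeR adjusted p = 2.9e-10 and 0.0021). ARHGEF28, a guanine nucleotide exchange factor, went from 32.5 to 6.82 CPM, the potassium channel gene KCNC4 from 15.9 to 3.61 CPM and PFKFB4, an enzyme that sets the rate of glycolysis, from 19.8 to 4.58 CPM. Among genes of at least 100 CPM, PEG10, a gene derived from a retrotransposon, was at 332 and 328 CPM in the control files and 99.2 and 102 CPM in the knockdown files (log2 ratio -1.72). The calcium-activated potassium channel gene KCNN3 went from 113 to 37.9 CPM and the sialomucin gene PODXL from 182 to 61.8 CPM. The pseudogene USP32P1 (from 30.1 to 6.75 CPM), CCDC144A (from 17.4 to 2.96 CPM), the long noncoding LINC02006 (from 11.4 to 2.62 CPM) and TUBA1B-AS1 (from 11.6 to 1.5 CPM) complete the set. USP32P1 and CCDC144A share sequence with near-identical copies, and TUBA1B-AS1 overlaps a gene on the other strand, so their reads could be split wrongly.

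**Figure D2:**
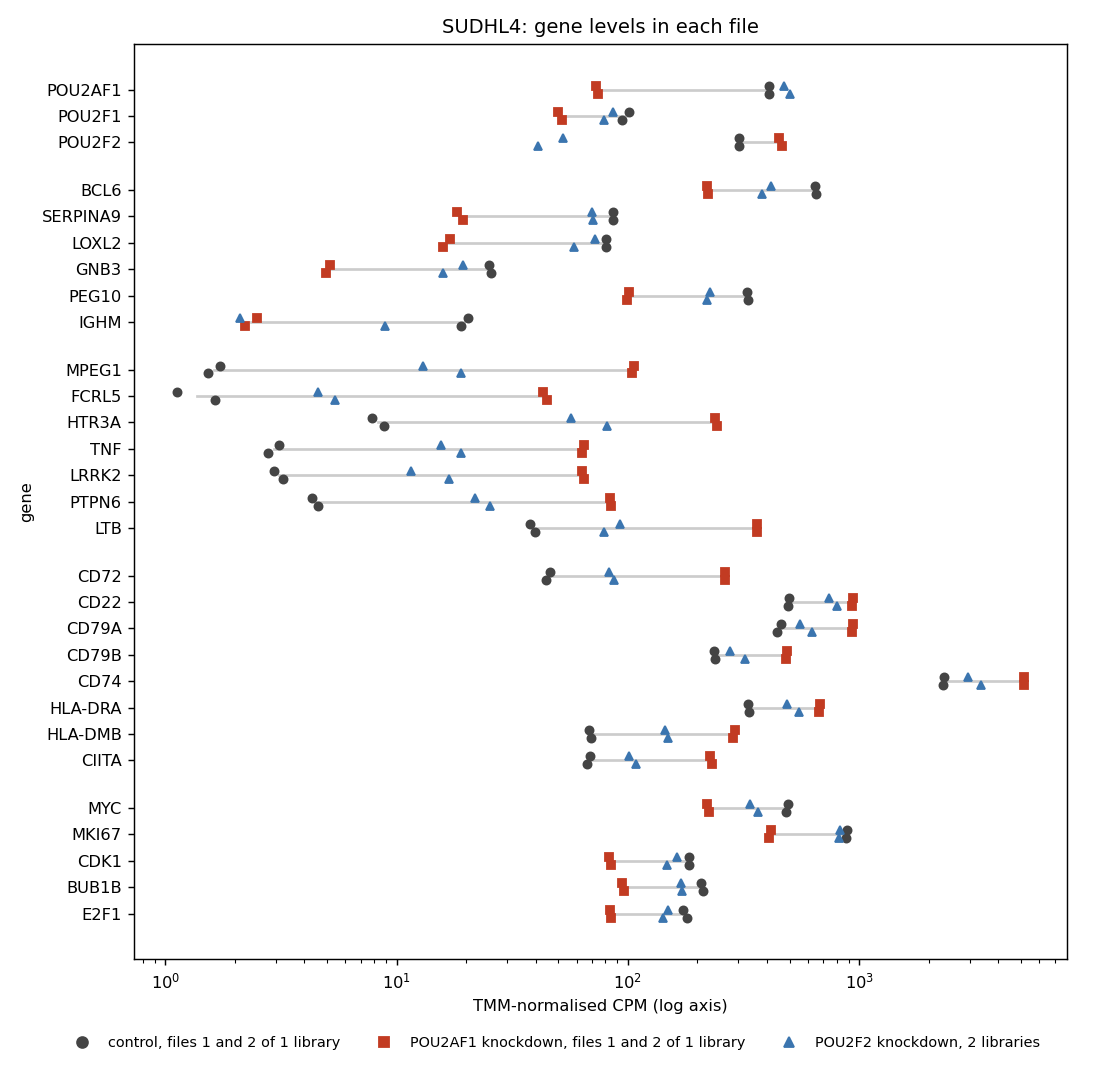
TMM-normalised CPM (horizontal log axis) of named genes in every SUDHL4 file: black circles for the 2 files of the control library, red squares for the 2 files of the POU2AF1 knockdown library and blue triangles for the 2 POU2F2 knockdown libraries. Files of a side lie close together, and for genes such as MPEG1, FCRL5 and PTPN6 the triangles stand between the circles and the squares.

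The genes furthest above the control included several at a few CPM or less in the control files. MPEG1, a pore-forming protein of phagocytes and B cells (ENSG00000197629, chromosome 11, 59208510 to 59212951, minus strand), was at 1.52 and 1.72 CPM in the control files and 105 and 106 CPM in the knockdown files (log2 ratio 5.99). FCRL5, an Fc receptor-like protein of memory B cells (ENSG00000143297, chromosome 1, 157513377 to 157552520, minus strand), was at 1.64 and 1.12 CPM in the control files and 44.6 and 42.9 CPM in the knockdown files (log2 ratio 4.96). PTPN6, which encodes the phosphatase SHP-1 that dampens B cell receptor signals (ENSG00000111679, chromosome 12, 6946468 to 6961316, plus strand), was at 4.57 and 4.3 CPM in the control files and 84.7 and 83.4 CPM in the knockdown files (log2 ratio 4.23). All 3 were ranked among genes at least 2-fold apart in each file pair, so their files had to lie apart. Their edgeR adjusted p-values were 0.022, 2.5e-25 and 6.6e-26, and 0.095, 0.004 and 0.00015 in the all-library fit.

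TNF, the inflammatory cytokine, was at 2.77 and 3.1 CPM in the control files and 63.3 and 64.7 CPM in the knockdown files (log2 ratio 4.43). LTB, the lymphotoxin beta chain, was at 39.9 and 37.7 CPM in the control files and 362 and 360.5 CPM in the knockdown files (log2 ratio 3.22). The kinase gene LRRK2 was at 3.24 and 2.96 CPM in the control files and 64.3 and 63.7 CPM in the knockdown files (log2 ratio 4.35). The serotonin-gated channel subunit HTR3A was at 8.79 and 7.86 CPM in the control files and 243 and 237 CPM in the knockdown files (log2 ratio 4.85), with an edgeR adjusted p of 0.079. The POU2F2 knockdown libraries, whose spread that p uses, stood at 81.2 and 56.7 CPM. FCGBP, a mucin-like protein that binds IgG, went from 1.83 to 31.3 CPM. UBA7, the activating enzyme of the ubiquitin-like ISG15, went from 1.36 to 23.6 CPM, the amino acid oxidase IL4I1 from 0.382 to 11.2 CPM, the small membrane protein gene SMIM14 from 22.4 to 210.5 CPM and the adaptor PLEKHA2 from 49.1 to 421 CPM. TMPRSS15, which encodes the protease enteropeptidase, had 8 reads in the control and 870 in the knockdown, and C16orf74 had 9 and 1104.

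IGLC1 had no reads in the control files. This lambda light chain constant gene was at 17.1 and 17.7 CPM in the knockdown files, at least 304-fold higher than the limit of 3 counts in the control library. IGLC1 is nearly identical to IGLC2 and IGLC3, so estimated counts could be moved between them. A gene outside the rule, OLMALINC, went the other way, with 448 reads in the control and 0 in the knockdown. It was chosen after its values were seen.

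Genes of B cell receptor signalling stood higher in the knockdown. Of 33 tested members 11 were at least 2-fold higher and 0 lower, the median log2 ratio was 0.74 against -0.05 over all genes tested, and 30 of the 33 were above 0. With deposited TPM 8 members were past 2-fold higher and 1 lower, at a median of 0.51. The fit of the SUDHL4 libraries called 26 higher and 2 lower, and the all-library fit 8 and 0. Of all genes tested 7.69% were at least 2-fold higher and 3.31% lower. The SUDHL4 fit called 17.8% of its genes higher and 20.1% lower, and the all-library fit 1.23% and 0.458%. These shares belong beside each list count below. Coreceptors and inhibitory partners were among them. CD72, an inhibitory coreceptor, was at 44.2 and 46.2 CPM in the control files and 263 and 264 CPM in the knockdown files (log2 ratio 2.54). The signal chains CD79A and CD79B were at 450.5 and 237 CPM in the control library and at 936 and 486 CPM in the knockdown library. These ratios lay just past 2-fold, and on the TPM scale both were under it. MS4A1, which encodes CD20, went from 804 to 2439 CPM, the inhibitory Fc receptor FCGR2B from 32.4 to 86.2 CPM, the adaptor BANK1 from 17.5 to 71.8 CPM, PRKCB from 2.06 to 11.9 CPM, the tetraspanin CD37 from 234 to 532 CPM and the inhibitory receptor LAIR1 from 0.612 to 5.72 CPM. LAIR1 entered the test through the knockdown side alone and so had to be higher. At a mean of at least 5 CPM 10 members were higher and 0 lower.

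CD22, an inhibitory lectin of the receptor complex, was at 493 and 496 CPM in the control files and 933 and 939 CPM in the knockdown files (log2 ratio 0.92) and stayed just under 2-fold. The kinases SYK (0.02), LYN (0.58) and BTK (0.71) had log2 ratios within 2-fold. The phosphatase gene PTPN18 had a log2 ratio of -0.87, the lowest of the list.

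The immunoglobulin genes did not move as 1 group. IGHM, the mu heavy chain constant gene (ENSG00000211899, chromosome 14, 105851705 to 105856218, minus strand), was at 18.9 and 20.3 CPM in the control files and 2.22 and 2.49 CPM in the knockdown files (log2 ratio -3.04). The POU2F2 knockdown libraries stood at 8.95 and 2.1 CPM, and with that spread the edgeR adjusted p was 0.46. It was 0.011 in the all-library fit. IGHV1-69D, a heavy chain variable segment, had 110 reads in the control and 9 in the knockdown (log2 ratio -3.47, 95% counting interval -4.91 to -2.77). Of 14 tested constant, J and surrogate chain genes 5 were at least 2-fold higher and 1 lower, with a median of 0.64. The surrogate light chain gene VPREB1 went from 3.88 to 27.1 CPM and the lambda-like IGLL5 from 31.9 to 82.6 CPM. The joining chain gene JCHAIN was at 333 and 338 CPM in the control files and 531 and 532 CPM in the knockdown files. With deposited TPM 3 were past 2-fold higher and 1 lower. IGLC1, a member of this list, entered the test through the knockdown side alone and so had to be higher. At a mean of at least 5 CPM 4 were higher and 1 lower. Segments and constant genes of these families share sequence, so single members are uncertain.

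MHC class II genes, which present antigen to CD4 T cells, were higher together. Of 17 tested members 12 were at least 2-fold higher and 0 lower, and the median log2 ratio was 1.16. The SUDHL4 fit called 15 higher and 1 lower, and the all-library fit 3 and 0. Their summed level was 4053 CPM without and 9206 CPM with knockdown. The master coactivator CIITA was at 66.6 and 68.4 CPM in the control files and 230 and 226 CPM in the knockdown files (log2 ratio 1.76). The invariant chain CD74 was at 2312 and 2320 CPM in the control files and 5146 and 5177 CPM in the knockdown files (log2 ratio 1.16). HLA-DMB, a peptide exchange chain, was at 69.3 and 67.7 CPM in the control files and 286 and 289.5 CPM in the knockdown files (log2 ratio 2.07), and it was called in both fits (edgeR adjusted p = 4.5e-20 and 6.3e-05). HLA-DQB1 went from 119.6 to 503 CPM, HLA-DMA from 71.9 to 195 CPM, HLA-DRA from 332 to 672 CPM and HLA-DPB1 from 147 to 345 CPM. The RFX factors that bind class II promoters were not among the 12: RFX5, RFXANK and RFXAP had log2 ratios of 0.25, 0.44 and -0.86. With deposited TPM 4 members were past 2-fold higher and 1 lower, at a median of 0.86. Reads of polymorphic HLA genes can be lost or shared between copies.

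MHC class I genes were less far apart. Of 17 tested members 3 were at least 2-fold higher and 0 lower, all 17 lay above 0, and the median was 0.55. HLA-B was at 29.7 and 29.2 CPM in the control files and 122 and 123 CPM in the knockdown files (log2 ratio 2.05). HLA-E went from 72 to 211 CPM, and NLRC5, the class I counterpart of CIITA, from 3.96 to 16.1 CPM. The light chain B2M was at 343 CPM in both control files and 683 and 680 CPM in the knockdown files (log2 ratio 0.99), just under 2-fold.

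Interferon-stimulated genes had a median of 2.21 over 20 tested members, of which 16 were at least 2-fold higher and 0 lower. 11 of the 20 entered the test through the knockdown side alone and so had to be higher, which the count and the median include. At a mean of at least 5 CPM the median was 1.14, with 6 higher and 0 lower. Several were rare transcripts. IFIT1, IFIT2 and IFIT3, which bind viral RNA, had 2, 17 and 1 reads in the control library and 264, 513 and 214 in the knockdown library. For IFIT1 the 95% counting interval of the log2 ratio ran from 5.04 to 9.96, and for IFIT3 from 5.12 to 12.92. IFI6 was at 0.781 and 1.01 CPM in the control files and 10.2 and 11.6 CPM in the knockdown files (log2 ratio 3.54). ISG15, at a higher level, was at 21.1 and 21.7 CPM in the control files and 46.8 and 47.4 CPM in the knockdown files (log2 ratio 1.14). The transcription factors IRF7 (from 3.52 to 18.8 CPM) and IRF9 (from 7.32 to 22 CPM) and the RNA sensor IFIH1 (from 0.783 to 3.26 CPM) were higher as well. MX2, RSAD2, XAF1, IFI44, IFI44L, EPSTI1, IFI27 and OAS1 completed the 16.

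Of 19 tested genes of Toll-like receptors and their adaptors 7 were at least 2-fold higher and 1 lower (median 0.61). With deposited TPM 5 were past 2-fold higher and 1 lower, at a median of 0.25. TLR7, a sensor of single-stranded RNA, was at 0.508 and 0.411 CPM in the control files and 4.86 and 5.36 CPM in the knockdown files (log2 ratio 3.38). TLR4, the lipopolysaccharide sensor, was at 0.899 and 1.38 CPM in the control files and 10.7 and 10.9 CPM in the knockdown files (log2 ratio 3.2). TLR1 and the interferon factor IRF7 also counted among the 7. TLR10 went from 49.2 to 164 CPM, CD180, a TLR4-like receptor of B cells, from 53.1 to 132 CPM, and its partner LY86 from 21.4 to 49.6 CPM. TLR2 was the lower one, with 92 reads in the control and 29 in the knockdown. TLR7 entered the test through the knockdown side alone and TLR2 through the control side alone, so both had to differ. At a mean of at least 5 CPM 6 were higher and 0 lower.

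The list of the Fc receptor-like family, which also holds the Fc receptor genes FCGR2B and FCER2, had 8 tested members. Of these 5 were at least 2-fold higher and 0 lower, with a median of 2.08. At a mean of at least 5 CPM the median was 1.41, with 4 higher and 0 lower. FCRL1 was at 8.48 and 9.73 CPM in the control files and 67.1 and 70.00 CPM in the knockdown files (log2 ratio 2.91) and FCRL2 at 9.49 and 9.95 CPM in the control files and 66.8 and 64.8 CPM in the knockdown files (log2 ratio 2.75). FCER2, which encodes the low-affinity IgE receptor CD23, had 10 reads in the control and 188 in the knockdown. It entered the test through the knockdown side alone and so had to be higher. FCRL3 did not share the pattern, at a log2 ratio of 0.20.

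The 4 SP100 family genes, which encode nuclear body proteins with chromatin reader domains, all lay above 0 and 3 were past 2-fold. SP140 was at 9.14 and 8.53 CPM in the control files and 85.5 and 84.4 CPM in the knockdown files (log2 ratio 3.26), with edgeR adjusted p-values of 2.5e-25 and, in the all-library fit, 0.0081. SP110 went from 20.3 to 50.5 CPM, SP140L from 11 to 23.3 CPM and SP100 from 39.2 to 72.3 CPM. With deposited TPM 1 of the 4, SP140, was past 2-fold.

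Of 22 tested genes of the CD40 and NF-kB response 8 were at least 2-fold higher and 0 lower (median 0.69). Beside TNF and LTB they were LTA, the lymphotoxin alpha chain (from 2.41 to 14.8 CPM), the adaptor TRAF1 (from 30.8 to 68.8 CPM), the costimulatory CD86 (from 34.7 to 77.2 CPM), the maturation marker CD83 (from 40.4 to 88.5 CPM), the survival gene BCL2A1 (from 8.9 to 19.3 CPM) and EBI3, with 46 and 224 reads. EBI3 entered the test through the knockdown side alone and so had to be higher. At a mean of at least 5 CPM 7 were higher and 0 lower, and with deposited TPM 4 were past 2-fold. In the TNF receptor superfamily 3 of 11 were at least 2-fold higher and 0 lower: TNFRSF14 (from 2.9 to 14.2 CPM), the BAFF receptor TNFRSF13C (from 95.2 to 286 CPM) and the ligand CD70 (from 4.53 to 15.1 CPM), which the list includes.

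Immediate early genes, which respond to receptor signals within minutes, gave 7 of 17 at least 2-fold higher and 1 lower. EGR1 was at 2.77 and 2.66 CPM in the control files and 43.5 and 40.2 CPM in the knockdown files (log2 ratio 3.93). BTG2, an antiproliferative gene, was at 245 and 241 CPM in the control files and 688 and 686 CPM in the knockdown files (log2 ratio 1.5). EGR2, EGR3, ZFP36, IER2 and JUNB were the other higher members, and JUN was lower with 201 and 97 reads. EGR2 and EGR3 entered the test through the knockdown side alone and so had to be higher. At a mean of at least 5 CPM 5 were higher and 0 lower. With deposited TPM 4 were past 2-fold higher and 1 lower.

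Genes of naive and memory B cells had 12 tested members, of which 8 were at least 2-fold higher and 0 lower (median 1.69). 5 of the 12 entered through the knockdown side alone and so had to be higher. At a mean of at least 5 CPM the median was 0.38, with 3 higher and 0 lower. The chemokine receptor CCR6 had 0 reads in the control and 192 in the knockdown, at least 58.4-fold higher against 3 counts. KLF2, a quiescence and trafficking factor, had 23 and 388 reads, and CCR7 had 51 and 372. ZEB2 was at 2.46 and 3.07 CPM in the control files and 23 and 20.8 CPM in the knockdown files (log2 ratio 2.97). BTG1 was at 51.8 and 49.7 CPM in the control files and 151 and 145 CPM in the knockdown files (log2 ratio 1.54). S1PR1, the egress receptor, was under the minimum level, with 12 and 67 reads.

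**Figure D3:**
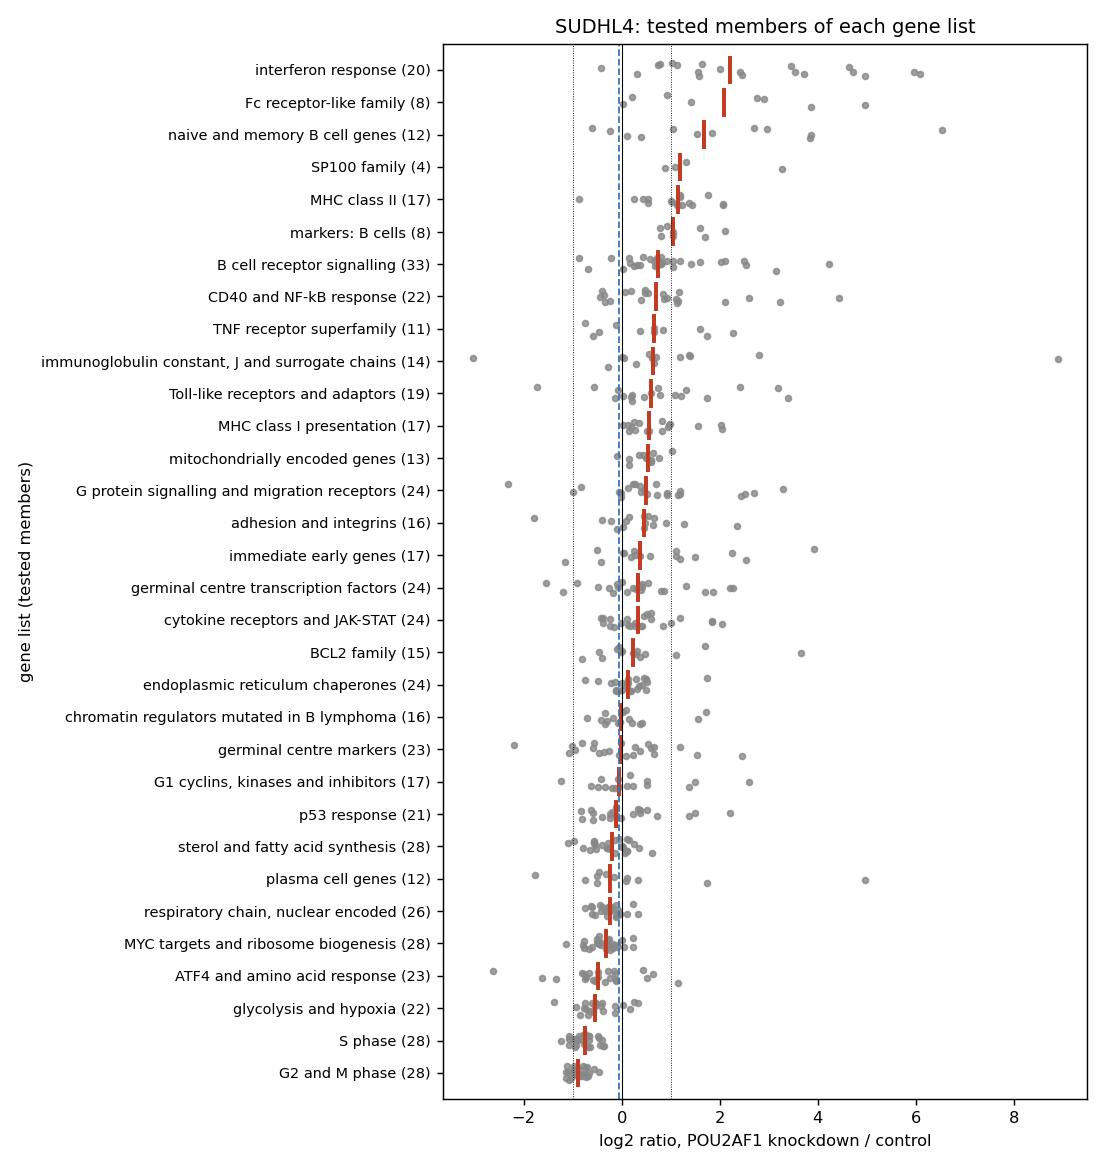
Log2 ratio of POU2AF1 knockdown over control (horizontal axis) for each tested member (grey points) of 32 gene lists, with the number tested in brackets. Red bars are list medians, the dashed blue line is the median of all genes tested (-0.05) and dotted lines mark 2-fold; lists are ordered by median, and that of the interferon list (2.21) includes 11 of 20 members tested through the knockdown side alone.

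Transcription factors of the germinal centre went both ways. Of 24 tested 5 were at least 2-fold higher and 2 lower, and the median of 0.34 was -0.01 with deposited TPM. BCL6 and MYB (from 36 to 15.5 CPM) were the lower ones. PAX5, the B lineage commitment factor, was at 116 and 90.3 CPM in the control files and 303 and 365 CPM in the knockdown files (log2 ratio 1.7). Its file pairs gave log2 ratios from 1.39 to 2.01, wider than the 95% counting interval of 1.66 to 1.74. LMO2 went from 13.9 to 67.2 CPM, HHEX from 7.21 to 33.5 CPM, BACH2, which restrains plasma cell differentiation, from 55.8 to 138 CPM, and ETV6 had 34 and 140 reads. ETV6 entered the test through the knockdown side alone and so had to be higher. At a mean of at least 5 CPM 4 were higher and 2 lower. IRF8 was at 127 and 126 CPM in the control files and 170.4 and 167 CPM in the knockdown files (log2 ratio 0.42) and MYBL1 at 91.2 and 94.5 CPM in the control files and 49.1 and 50.04 CPM in the knockdown files (log2 ratio -0.9), both within 2-fold.

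Markers of the germinal centre were split too, with 3 of 23 higher and 3 lower. GCSAM (from 29.5 to 66.9 CPM) and KLHL14 (from 13.9 to 40.4 CPM) were among the higher ones. SERPINA9, NUGGC (from 129 to 61.1 CPM) and ASB13 (from 147 to 72.3 CPM) were lower. NUGGC and ASB13 lay close to 2-fold: without control file 1 their log2 ratios were -0.99 and -0.96, and 1 member was then past 2-fold lower. With deposited TPM 2 were past 2-fold higher and 5 lower. S1PR2, the receptor that confines cells to the germinal centre, was at 285 and 293 CPM in the control files and 274 and 278 CPM in the knockdown files.

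Of 12 tested plasma cell genes 2 were at least 2-fold higher and 1, IRF4, was lower. PRDM1, the factor that drives plasma cell differentiation, had 5 reads in the control and 3 in the knockdown library, and SDC1 had 0 and 2, too few to compare. XBP1, the factor of the secretory programme, was at 3.91 and 2.99 CPM in the control files and 12.2 and 11.2 CPM in the knockdown files (log2 ratio 1.75). IRF4 had 92 and 28 reads (log2 ratio -1.77, 95% counting interval -2.51 to -1.23), and all of its files lay under 2 CPM. It entered the test through the control side alone and so had to be lower. At a mean of at least 5 CPM 2 members were higher and 0 lower. Of 24 endoplasmic reticulum chaperone and folding genes 1, XBP1, was past 2-fold.

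Receptors coupled to G proteins and their regulators gave 7 of 24 at least 2-fold higher and 2 lower. CNR1, a cannabinoid receptor, was at 11.5 and 13.2 CPM in the control files and 70.1 and 71.2 CPM in the knockdown files (log2 ratio 2.51). GPR18 went from 8.87 to 47.8 CPM, the cannabinoid receptor CNR2 from 44.5 to 101 CPM and the lysophosphatidic acid receptor LPAR5 from 18.5 to 41.9 CPM. P2RY10 had 11 and 136 reads. CCR7 and RGS2 were the other higher members. P2RY10 and CCR7 entered the test through the knockdown side alone and so had to be higher. At a mean of at least 5 CPM 5 were higher and 2 lower. With deposited TPM 4 were past 2-fold higher and 2 lower. GNB3 and RGS18 (from 17.7 to 8.82 CPM) were the lower ones, and RGS18 lost the 2-fold mark under 4 alternative settings. Among cytokine receptors and JAK-STAT genes 4 of 24 were higher and 0 lower: IFNGR1 (from 17.5 to 72.3 CPM), JAK3 (from 8.14 to 29.3 CPM), IL10RA (from 7.49 to 26.8 CPM) and IL21R (from 68.3 to 155 CPM). Of 16 adhesion genes CD53 (from 45.9 to 236 CPM) and SELPLG (from 2.9 to 7.1 CPM) were higher and the integrin ITGA6 (from 3.96 to 1.12 CPM) was lower. These counts lie near the shares of all genes tested, 7.69% higher and 3.31% lower.

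Genes of S phase and of G2 and M phase were lower throughout. All 28 S phase genes and all 28 genes of G2 and M phase had log2 ratios below 0, with medians of -0.76 and -0.88. 4 S phase genes and 6 G2 and M phase genes were past 2-fold. The SUDHL4 fit called all 28 of each list lower, and the all-library fit 4 and 5. With deposited TPM 14 and 19 were past 2-fold, and with the centred TPM values 3 and 3. MKI67, the proliferation marker Ki-67, was at 880.2 and 889 CPM in the control files and 408 and 417 CPM in the knockdown files (log2 ratio -1.1). CDK1, the mitotic kinase, was at 184 and 183 CPM in the control files and 84.5 and 83.1 CPM in the knockdown files (log2 ratio -1.13), and BUB1B, a spindle checkpoint kinase, at 211 and 207 CPM in the control files and 96.2 and 94.8 CPM in the knockdown files (log2 ratio -1.13). The replication factors GINS1 and CDT1 went from 75.1 to 31.7 CPM and from 117 to 55.1 CPM, and the transcription factors E2F1 and E2F2 from 177 to 83.9 CPM and from 159.8 to 75.6 CPM.

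Regulators of G1 did not move in 1 direction: 3 of 17 were at least 2-fold higher and 1 lower. With deposited TPM, and at a mean of at least 5 CPM, 1 was higher and 1 lower. CDK6 was at 333 and 340.1 CPM in the control files and 142 and 143 CPM in the knockdown files (log2 ratio -1.24). TXNIP, an inhibitor of thioredoxin and of glucose uptake, was at 61.9 and 60.5 CPM in the control files and 368 and 367 CPM in the knockdown files (log2 ratio 2.59). The inhibitor genes CDKN1A and CDKN2B were rare, with 35 and 50 reads in the control and 103 and 159 in the knockdown. Both entered the test through the knockdown side alone and so had to be higher. In the p53 list TP53INP1 (from 31 to 144 CPM), BTG2 and CDKN1A were the 3 of 21 at least 2-fold higher, beside 7.69% of all genes tested. In the BCL2 family the BH3-only genes HRK (from 1.07 to 14 CPM) and BMF (from 60.5 to 196 CPM) and the survival gene BCL2A1 were the 3 of 15 higher.

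MYC was at 480.4 and 494 CPM in the control files and 223 and 220.3 CPM in the knockdown files (log2 ratio -1.14), with an edgeR adjusted p of 2.4e-10 and 0.075 in the all-library fit. It was the 1 member past 2-fold of 28 MYC targets and ribosome biogenesis genes, whose median was -0.32, with 25 of 28 below 0. The SUDHL4 fit called 17 of them lower and 0 higher, and the all-library fit 0. With deposited TPM 4 were past 2-fold lower. PA2G4, which acts in ribosome assembly and growth, went from 667 to 384 CPM.

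The lists of glycolysis, of the ATF4 response and of lipid synthesis had medians below 0. The 22 tested genes of glycolysis and hypoxia had a median ratio of -0.55. Of these 18 were below 0, and 1, the enolase ENO2 (from 26.1 to 9.99 CPM), was past 2-fold. LDHA, the lactate dehydrogenase subunit, was at 1256 and 1279 CPM in the control files and 737 and 750.1 CPM in the knockdown files (log2 ratio -0.77). In the ATF4 and amino acid list 3 of 23 were at least 2-fold lower and 1 higher (median -0.48). The cystine transporter SLC7A11 was at 25.6 and 27.6 CPM in the control files and 8.02 and 9.24 CPM in the knockdown files (log2 ratio -1.62), and the asparagine synthetase ASNS was at 131 and 129 CPM in the control files and 48.8 and 54 CPM in the knockdown files (log2 ratio -1.34). CHAC1 had 112 and 18 reads, and DDIT4, an inhibitor of mTORC1, was the higher one (from 155 to 343 CPM). CHAC1 entered the test through the control side alone and so had to be lower. At a mean of at least 5 CPM 2 members were lower and 1 higher. With deposited TPM 5 members were past 2-fold lower and 0 higher. Sterol and fatty acid genes had a median of -0.19 with the desaturase FADS2 the 1 member past 2-fold, at 3.32 and 4.23 CPM in the control files and 1.7 and 1.79 CPM in the knockdown files (log2 ratio -1.09). With deposited TPM 3 members each of the glycolysis and the sterol list were past 2-fold lower. The main count of 1 in each of these lists lies near the 3.31% of all genes tested that were at least 2-fold lower.

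The nuclear and the mitochondrially encoded genes of the respiratory chain had medians on opposite sides of 0. Nuclear encoded subunits had a median of -0.25, with 23 of 26 below 0 and 0 past 2-fold in either direction. The 13 mitochondrially encoded genes had a median of 0.53, with 12 of 13 above 0 and MT-ND1 past 2-fold (3156 and 6409 CPM). The SUDHL4 fit called 1 nuclear encoded gene higher and 12 lower, and 3 mitochondrially encoded genes higher and 0 lower. The all-library fit called 0 of either. The mitochondrial share of reads also differed between the 2 SUDHL4 POU2F2 knockdown libraries, at 13.9% and 10.1%. The part of the mitochondrial share in the other results was not tested. Computed on totals without these genes and without TMM scaling, 925 genes were higher and 527 lower, and the median log2 ratio was -0.11. That setting changes both at once, so its counts do not show the part of the mitochondrial genes.

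Of 16 chromatin regulators mutated in B cell lymphoma, TET2 (from 3.42 to 11.3 CPM) and CHD2 (from 42.1 to 124 CPM) were at least 2-fold higher and 0 lower. Of all genes tested 7.69% were higher and 3.31% lower, and the counts of this list lie near those shares. Among the 8 B cell markers 5 were at least 2-fold higher and 0 lower, and their summed level was 2228 CPM without and 5510 CPM with knockdown. In the T and NK list LCK, TRAC and CD3E were at least 2-fold higher: LCK was at 64.2 and 66.5 CPM in the control files and 168 and 174 CPM in the knockdown files (log2 ratio 1.38), TRAC at 3.36 and 3.25 CPM in the control files and 24.1 and 25.7 CPM in the knockdown files (log2 ratio 2.89) and CD3E had 54 and 136 reads. The summed level of the 24 markers was 78.7 CPM without and 210.2 CPM with knockdown, and that of the 19 markers under 1 CPM was 1.64 and 3.35 CPM. CD68 (34 and 299 reads) was the only one of 20 myeloid markers at 1 CPM or more, and LYZ had 0 and 5 reads. In the stromal list DCN was at 75.2 and 71.6 CPM in the control files and 90.5 and 91.9 CPM in the knockdown files (log2 ratio 0.31), and the collagen gene COL1A1 had 2 and 9 reads.

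The libraries with guides against POU2F2 share the control of this comparison, so only levels are set side by side. For MPEG1 they were at 19 and 13 CPM, for FCRL5 at 5.41 and 4.56 CPM and for PTPN6 at 25.4 and 21.7 CPM. BCL6 was at 379 and 414 CPM, MYC at 366 and 337 CPM and SERPINA9 at 70.5 and 69.96 CPM. Each of these values lies between the control and the POU2AF1 knockdown. MKI67, at 815 and 823 CPM, lay between them as well, closer to the control level of 885 CPM.

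OCI-Ly7 has its own controls, which allows the response to be compared between lines. It had 4 control libraries, of which 1, deposited as 3 files, belongs to batch 1, and 6 POU2AF1 knockdown libraries in 2 batches. An edgeR fit with batch called 47 genes higher (0.28% of 16792) and 92 lower (0.548%). Mitochondrially encoded genes took 25.5% of the reads of POU2AF1 knockdown replicate 1 of that line and 6.95% to 9.59% in the other 5 POU2AF1 knockdown libraries. Without that replicate 54 were higher and 99 lower, and without the single control library of batch 1 3 were higher and 6 lower.

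Of the 412 genes at least 2-fold lower in SUDHL4 18 were called lower in OCI-Ly7 (4.37% of the 412, and 25% of the 72 called lower there and tested here). Of the 957 higher genes 12 were called higher (1.25%, and 30.8% of 39). BCL6 had a fitted log2 change of -1.43 in OCI-Ly7 (edgeR adjusted p = 0.00047) beside its ratio of -1.55 in SUDHL4. GNB3 (-2.85), LOXL2 (-1.99), IGHM (-0.89), the mTOR inhibitor DEPTOR (-1.09), the Wnt ligand WNT5A (-1.78), ACKR4 (-2.63), MYH11 (-1.85), KCNN3 (-2.20), NUGGC (-1.21) and LINC02006 (-1.81) were also lower there on the fitted log2 scale. SP140 (1.59), PRICKLE1 (1.98), the kinase genes AAK1 (1.18) and STK17A (0.90), KLHL14 (1.57), ETV6 (1.31), SP110 (0.83) and RUFY3 (0.93) were higher in both. In SUDHL4 DEPTOR was at 79.9 and 80.05 CPM in the control files and 21.4 and 19.1 CPM in the knockdown files, STK17A at 108 and 109 CPM in the control files and 319.8 and 326 CPM in the knockdown files and PRICKLE1 at 7.38 and 6.58 CPM in the control files and 44.6 and 45 CPM in the knockdown files. All 30 shared genes were still called in OCI-Ly7 without POU2AF1 knockdown replicate 1, but without its batch 1 control library 5 were: POU2AF1, GNB3, LOXL2, PRICKLE1 and ENSG00000262488.

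The difference between the lines itself was tested as an interaction in the all-library fit. It called 135 genes with a higher response in SUDHL4 (0.711% of 18985) and 19 with a lower one (0.1%). Of 219 named genes tested 38 differed, 34 higher and 4 lower in SUDHL4. Most of the 219 were named for their ratio in the same SUDHL4 libraries, so this share cannot be set against that of all genes. CD22 had a fitted log2 change of 0.97 in SUDHL4 and -0.69 in OCI-Ly7 (interaction 1.68 ± 0.26, SE, edgeR adjusted p = 0.0022). IRF8 was at 0.47 and -1.21 (adjusted p = 0.0076). MYC was at -1.09 and 0.54 (adjusted p = 0.026), the opposite order. For BCL6 the interaction was -0.05 ± 0.39 (SE), with an edgeR adjusted p of 1. All 38 differences were called without OCI-Ly7 POU2AF1 knockdown replicate 1, and 24 without its batch 1 control library, where that of MYC was lost at an adjusted p of 0.066.

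**Figure D4:**
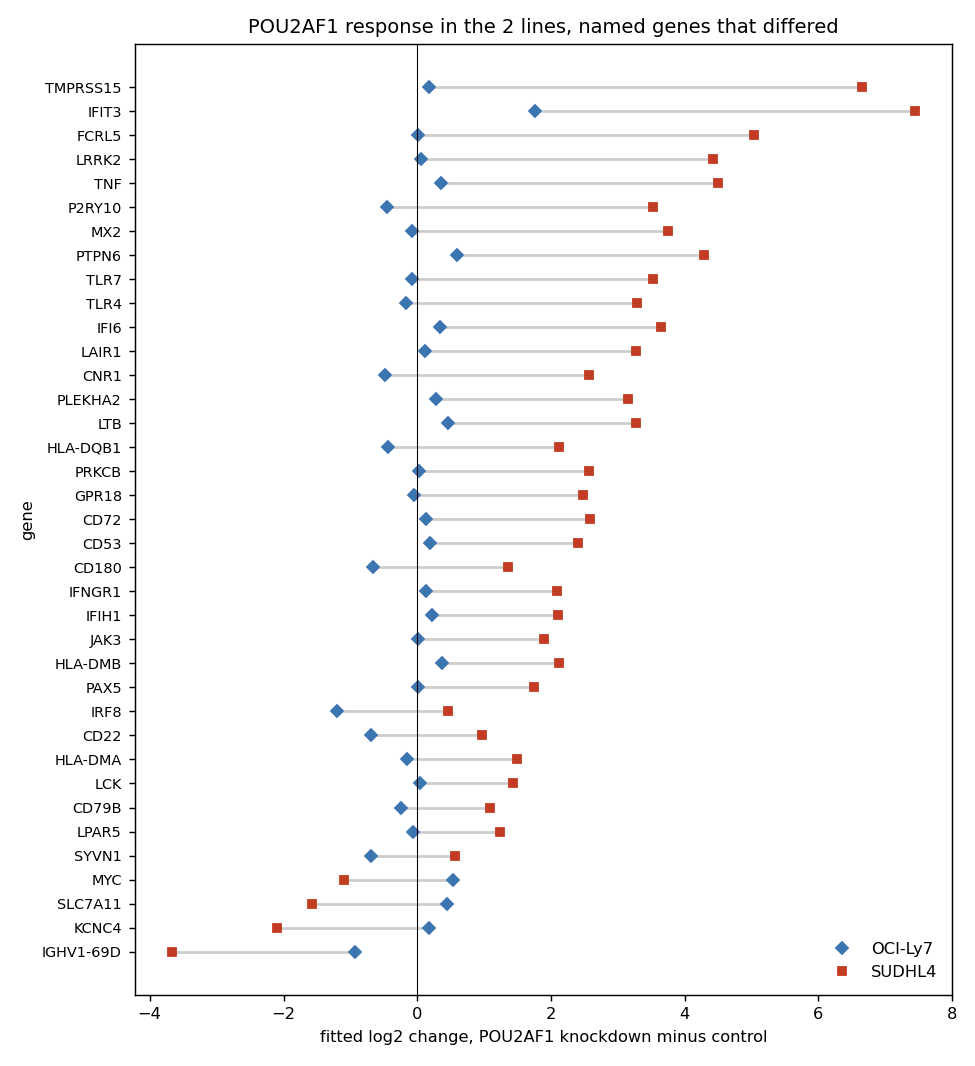
Fitted log2 change after POU2AF1 knockdown (horizontal axis) in SUDHL4 (red squares, fit of all libraries) and OCI-Ly7 (blue diamonds, fit of that line with batch) for 37 of the 38 named genes whose response differed between the lines; IGLC1, with no reads in the SUDHL4 control, is left out. Most SUDHL4 values lie above 1 while most of those of OCI-Ly7 lie closer to 0.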

How the data were processed

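RNA of the human lymphoma lines SUDHL4 and OCI-Ly7 was sequenced as paired-end stranded mRNA libraries, per the labels' protocols. Reads were processed with fastp and Salmon 1.5.1 on GRCh38.p13, per the submitters' processing notes. The library type used in counting is not given in the sources used here. The deposited files hold estimated counts and TPM for each of 227912 transcripts, as the authors' tool wrote them. Transcripts were matched to GENCODE 29 without version numbers (98.4% to 98.9% of reads), and the counts of a gene's transcripts were added and then rounded to whole numbers.

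Of 26 files, 3 pairs at less than 1.5 times the counting noise were summed and OCI-Ly7 control file 3 was left out, leaving 22 libraries. That file equalled the sum of OCI-Ly7 control files 1 and 2 to within 2 reads for 93.3% of 26588 genes. The files of each side of the SUDHL4 comparison are 1 library, so the main result is an effect size with no p-value: a gene was called at a log2 ratio of 1 (2-fold) or more, after TMM scaling of the 4 SUDHL4 libraries, with a prior count of 2 and a mean of at least 1 CPM. Counting intervals are 95% and cover counting error only. edgeR 4.0.16 (quasi-likelihood test, R 4.3.3, Benjamini-Hochberg adjusted p below 0.05) gave fits with borrowed spread, and its interaction term compared the lines with batch as a term. DESeq2 1.42.0 was an alternative. The scripts were tested on simulated data.

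Named genes are POU2AF1, POU2F1 and POU2F2; the 12 genes furthest up and down at 10 CPM or more, and the 5 at 100 CPM or more, among genes with a symbol and past 2-fold in each of the 4 file pairs; in each list, members past 2-fold and the 4 furthest from 0; 11 chosen B cell genes; and up to 12 in each direction shared with OCI-Ly7. The text names some other list members as well, and a few genes that the rule takes are not reported here. The gene lists and the genes were chosen with earlier results of these data known, so their counts are descriptions. Promoter windows are RefSeq sequences of GRCh38.p14.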

Additional observations from a re-analysis of the deposited data

Results flagged for a closer look

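The results here are the 38 named genes whose response to POU2AF1 knockdown differed between SUDHL4 and OCI-Ly7 in the edgeR fit of all libraries, with adjusted p-values of the interaction from 0.00018 to 0.049. Values in brackets are the fitted response in SUDHL4 minus that in OCI-Ly7, on the log2 scale. SUDHL4 enters with 1 control and 1 knockdown library, so the spread comes from the other libraries.

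Among genes furthest above the control in SUDHL4 they were TMPRSS15 (6.49), FCRL5 (5.05), LRRK2 (4.38), TNF (4.16), PTPN6 (3.73), LTB (2.85), PLEKHA2 (2.9) and P2RY10 (4.0). Among B cell receptor signalling genes they were CD72 (2.48), PRKCB (2.57), CD22 (1.68), CD79B (1.36) and LAIR1 (3.18). In MHC class II they were HLA-DQB1 (2.58), HLA-DMB (1.77) and HLA-DMA (1.67). Among interferon and pattern recognition genes they were IFIT3 (5.72), MX2 (3.85), IFI6 (3.33), IFIH1 (1.9), TLR7 (3.62), TLR4 (3.48) and CD180 (2.06). Receptors and signalling genes were P2RY10 (4.0), CNR1 (3.06), GPR18 (2.55), LPAR5 (1.31), CD53 (2.24), IFNGR1 (1.99), JAK3 (1.9) and LCK (1.42). The transcription factor PAX5 (1.77) also differed. So did IRF8 (1.7) and SYVN1 (1.28), whose fitted changes had opposite signs in the lines. Opposite signs were also seen for others named here, such as CD22, CNR1 and MYC. IGLC1 (13.24) had no reads in the SUDHL4 control, so its fitted value is no measure of size. The response was lower in SUDHL4 for IGHV1-69D (-2.71), KCNC4 (-2.24), SLC7A11 (-2.0) and MYC (-1.6).

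Without the single OCI-Ly7 control library of batch 1 the difference was no longer called for 14 of the 38, with adjusted p-values from 0.052 (PAX5) to 0.14 (SYVN1). The others were KCNC4, MYC, IFI6, LAIR1, IFIT3, CD180, SLC7A11, LPAR5, CD79B, HLA-DQB1, HLA-DMA and MX2.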

How the results depend on the processing

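POU2F2, within 2-fold, was the 1 named gene that changed direction, at -0.12 with deposited TPM. Of 1971 alternative values of the 183 named genes at least 2-fold apart, 1891 were past 2-fold on the same side and 0 were reversed, while 52 genes came under 2-fold in at least 1 alternative, 41 of them with deposited TPM. The settings with another filter leave a gene's ratio unchanged, and a prior count of 0.5 shrinks it less. Values from these settings are among the 1971 and could not come under 2-fold, so the total overstates how far the ratios were tried. The 957 higher and 412 lower genes became 609 and 1041 with deposited TPM (36.9% of calls higher against 69.9%), 2230 and 1049 with no filter beyond 10 counts, and 488 and 215 at a mean of 5 CPM. Centring TPM on its median, chosen after seeing the data, gave 995 and 367. Leaving out each file in turn gave 894 to 1065 higher and 348 to 495 lower genes. With borrowed spread, the 3005 higher and 3383 lower calls of edgeR became 233 and 87 in the fit of all libraries and 1569 and 1894 with DESeq2. Leaving out 1 file or 1 POU2F2 knockdown library gave 177 to 3281 higher and 49 to 3691 lower calls, of which 177 to 180 and 49 to 67 are from the fits of all libraries that each left out 1 POU2F2 knockdown library. The 135 higher and 19 lower differences between the lines became 104 and 9 with no filter. They became 79 and 11 without the OCI-Ly7 control library of batch 1, and 169 and 26 without OCI-Ly7 POU2AF1 knockdown replicate 1. The last 2 settings were chosen after seeing the data. The cause of these shifts was not tested, except that a looser or stricter filter changes how many genes are tested. No paired analysis was possible because files 1 and 2 of each side are the same library.

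The comparison rests on 1 library on each side, so the spread between cultures was not measured. Genes under about 1 CPM rest on few reads, and reads of near-identical family members are not assigned with certainty.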
